A study of Sus scrofa with 28 samples.

Results

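CD68, ADGRE1 and CD8A are 3 of the 73 kidney genes that were measured by quantitative PCR in left kidney cortex of 28 castrated male Göttingen Minipigs. They were chosen by name as leukocyte markers, CD68 and ADGRE1 for macrophages and CD8A for T cells. The standard diet group (SD) held 7 animals. The FFC group (n = 13) ate a diet rich in fat, fructose and cholesterol, with 2% cholesterol for the first 5 months and 1% after that. The FFC-DIA group (n = 8) ate that kind of diet with 1% cholesterol throughout and was made diabetic with intravenous streptozotocin, 60 mg/kg on 3 days, a drug that destroys the insulin-producing cells, and was treated with insulin. No group was diabetic on the standard diet. FFC and FFC-DIA therefore differed in diabetes, in insulin and in the dietary cholesterol of the first 5 months, which cannot be told apart in their comparison. The animals were about 7 months old at the start and the diets ran for 13 months. The labels name the tissue, the diet and the diabetic state of each animal but not its cohort, and the 3 cohorts of the study could therefore not be used as a term.

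Macrophages and T cells live in the kidney interstitium in small numbers and accumulate there in many kidney diseases. CD68 is a glycoprotein of the lysosomal and endosomal membranes of monocytes and macrophages. ADGRE1, earlier named EMR1, encodes an adhesion receptor of the cell surface that has long been used to mark tissue macrophages. CD8A encodes the alpha chain of CD8, the co-receptor of cytotoxic T cells. In tissue RNA of this kind, fewer cells of a type and less RNA per cell cannot be told apart.

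The 3 assays used these primers, shown because they define which stretch of each transcript was counted, forward and reverse, 5′ to 3′.
CD68 forward: cgagatctccaaacgcctgt
CD68 reverse: agaggcagcaggatggtttg
ADGRE1 forward: aacacagcaagatgtggagctt
ADGRE1 reverse: gtgccattgactccaacgga
CD8A forward: cggcatccttctcctgtcac
CD8A reverse: gggcatgtcgccatgttaga
Each primer was 20 bases long except the ADGRE1 forward primer with 22 bases, and each held 10 to 12 G or C bases. No part is capitalised because no site within them was measured.

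The readout is the quantification cycle (Cq), the PCR cycle at which a product is first detected, so that a lower Cq means more transcript. The median Cq of the 73 genes in an animal lay between 11.3 and 13.6 in SD, between 10.8 and 13.2 in FFC and between 10.4 and 12.1 in FFC-DIA. Of the defining markers of kidney cortex, NPHS1 and WT1 of the podocyte had mean Cq values of 16.6 and 16.8 and the epithelial cadherin CDH1 had 9.60, and each was detected in 28 of 28 animals. The number of cDNA replicates behind a value was not balanced. By the authors' raw-data records, 5 of 7 SD, 2 of 13 FFC and 1 of 8 FFC-DIA animals held 1 cDNA replicate and the others 2. Those records name FFC as HFD, and the mean of an animal's records equalled its deposited Cq within 0.001 cycles in 1372 of 1372 values (49 genes, 28 animals).

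CD8A was detected late. Its mean Cq over the 28 animals was 18.1, the rank of 6 from the latest among the 73 genes, and it was later than the animal's own panel median in 28 of 28 animals. Cq values above 18 were found for CD8A in 13 animals, 10 of 13 on the FFC diet alone, 3 of 8 in FFC-DIA and 0 of 7 in SD. CD68 had a mean Cq of 13.0 (rank 26) and ADGRE1 of 12.1 (rank 36), and neither exceeded 18 in any animal. These ranks order the assays and not the amounts of the 3 transcripts, since Cq also depends on each assay.

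Late detection went with a larger spread across the panel. The 6 genes with a mean Cq above 18 had a median within-group SD of 0.96 on the log2 scale, against 0.46 for the other genes (Spearman rho 0.59 across genes, a description only). CD8A had a within-group SD of 0.71 with the panel mean as centre, CD68 of 0.41 and ADGRE1 of 0.44. Relative to the reference genes the spread was 0.67 for CD8A, 0.65 for CD68 and 0.57 for ADGRE1, so that the late marker stood apart on the first scale alone.

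**Figure D1:**
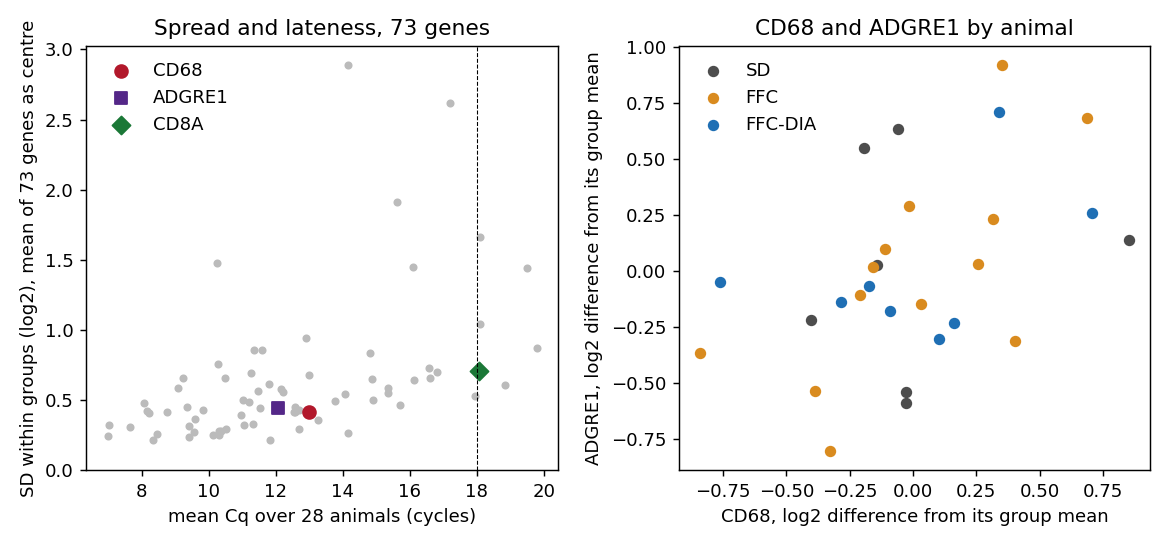
Left, mean Cq over 28 animals (cycles) against the SD within groups (log2, mean of 73 genes as centre), 1 point per gene, with a dashed line at Cq 18. Right, CD68 against ADGRE1 for each animal, both as log2 difference from the mean of its group. CD8A lies at 18.1 with a spread of 0.71, right of both macrophage markers, and the points at right have r = 0.46 (adjusted p = 0.193, permutation test).

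Before any normalization, CD68 was detected earlier in FFC-DIA and CD8A later in FFC. CD68 Cq ranged from 11.9 to 15.1 in SD (median 13.1), from 12.2 to 14.2 in FFC (median 13.5) and from 11.2 to 12.9 in FFC-DIA (median 12.2). ADGRE1 Cq ranged from 10.7 to 13.2 in SD (median 12.5), from 10.7 to 13.7 in FFC (median 12.3) and from 11.3 to 12.3 in FFC-DIA (median 12.0). CD8A Cq ranged from 15.9 to 17.8 in SD (median 17.3), from 17.5 to 20.4 in FFC (median 18.7) and from 16.6 to 19.4 in FFC-DIA (median 17.9). The FFC-DIA animals thus reached lower CD68 Cq values than the FFC animals with some overlap, ADGRE1 overlapped fully, and most FFC animals passed the latest SD value for CD8A.

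On unadjusted p-values the same 2 genes stood out. Mean CD8A Cq came 1.51 cycles later in FFC compared with SD (exact permutation p = 0.000761), while the mean Cq of all 73 genes differed by 0.11 cycles (exact p = 0.748). The mean CD68 Cq changed by -1.10 cycles from FFC to FFC-DIA (exact p = 0.000516), beside -0.38 cycles for the panel mean (exact p = 0.118).

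To express levels relative to the reference genes ACTB, TBP1 and RPL4, the Cq of a gene was subtracted from their mean Cq, and SD was centred at 0. On this log2 scale CD68 lay at -0.90 to 1.38 in SD (median -0.15), -0.10 to 1.91 in FFC (median 0.36) and 0.27 to 2.23 in FFC-DIA (median 0.87). ADGRE1 lay at -1.03 to 0.66 in SD (median 0.32), -0.38 to 1.73 in FFC (median 0.56) and -0.43 to 0.90 in FFC-DIA (median 0.07). CD8A lay at -0.96 to 1.26 in SD (median -0.44), -1.81 to 0.28 in FFC (median -0.91) and -1.43 to -0.21 in FFC-DIA (median -0.72). The groups overlapped for every gene, with 8 of 8 FFC-DIA animals above the SD mean for CD68 and 8 of 8 below it for CD8A.

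Tested this way, neither macrophage marker and not the T cell marker passed the threshold between any pair of groups. Each comparison used a two-sided exact permutation test with Benjamini-Hochberg adjustment over the 73 genes at 0.05. CD68 differed by 0.97 ± 0.36 (SE) between FFC-DIA and SD (95% interval 0.18 to 1.75, exact p = 0.0200, adjusted p = 0.293), where 2.74% of the 73 genes were called. CD8A differed by -0.89 ± 0.38 between FFC and SD (95% interval -1.62 to -0.15, exact p = 0.0205, adjusted p = 0.0875), where 19.2% of the genes were called. With cDNA strata the CD8A value was -0.40 (exact permutation p = 0.325, adjusted p = 0.414). Most of the panel ran the other way there, since 89% of the 73 genes had a higher mean in FFC than in SD and CD8A had the second lowest difference.

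The remaining differences on this scale were as follows. CD68 was 0.53 ± 0.32 higher in FFC than in SD (95% interval -0.11 to 1.16, exact p = 0.101, adjusted p = 0.194). ADGRE1 differed by 0.58 ± 0.31 in the same comparison (95% interval -0.02 to 1.19, exact p = 0.0588, adjusted p = 0.148). Both values were close to the panel median of 0.55, so the macrophage markers stood with the bulk of the panel in FFC.

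Between FFC-DIA and SD, ADGRE1 differed by 0.08 ± 0.30 (95% interval -0.56 to 0.72, exact p = 0.773, adjusted p = 0.913), or by 0.64 with cDNA strata (exact permutation p = 0.0463, adjusted p = 0.362). CD8A differed there by -0.80 ± 0.37 (95% interval -1.58 to -0.04, exact p = 0.0398, adjusted p = 0.379). Between FFC-DIA and FFC, where 5.48% of the genes were called, CD68 differed by 0.44 ± 0.29 (95% interval -0.15 to 1.03, adjusted p = 0.347 from the exact test). ADGRE1 differed by -0.50 ± 0.22 there (95% interval -0.99 to -0.01, adjusted p = 0.214 from the exact test) and CD8A by 0.08 ± 0.24 (95% interval -0.48 to 0.64, adjusted p = 0.837 from the exact test). Across the 3 groups together, the permutation test of the F statistic gave p = 0.0284 for CD68, 0.0591 for ADGRE1 and 0.0251 for CD8A. All became 1 after Bonferroni adjustment, where 5.48% of the genes were called.

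Of the reference genes, RPL4 differed between FFC and SD while ACTB and TBP1 did not pass the test there. RPL4, a ribosomal protein gene, had a mean Cq of 9.30 in FFC and 7.86 in SD, 1.44 cycles later (exact permutation p = 0.0139), beside 0.16 cycles for ACTB (exact p = 0.597) and 0.27 for TBP1 (exact p = 0.436). From FFC to FFC-DIA, RPL4 changed by -1.19 cycles (exact p = 0.0374), TBP1 by -0.69 (exact p = 0.0156) and ACTB by -0.10 (exact p = 0.684). The mean of the 3 reference genes came 0.62 cycles later in FFC compared with SD (exact p = 0.0877) and changed by -0.66 cycles from FFC to FFC-DIA (exact p = 0.0377). With RPL4 alone CD68 and ADGRE1 were 1.34 and 1.40 higher in FFC than in SD. Both passed the threshold (adjusted p = 0.0323 and 0.0266, exact test). The panel shifted alike, with 53 of the 73 genes called higher and a median difference of 1.37. With ACTB alone CD68 and ADGRE1 differed by 0.06 and 0.11, with TBP1 alone by 0.18 and 0.23, and with both by 0.12 and 0.17. With GAPDH, the fourth reference gene, alone the differences were -0.80 and -0.75, but these rest on SD animal 6, whose GAPDH Cq was 20.6 beside 8.23 to 9.26 in the other SD animals. Without that animal, a choice made after seeing the data, they were 0.93 and 0.90 (adjusted p = 0.334 for both, exact test). CD8A was lower in FFC than in SD under each choice, from -2.21 with GAPDH (-0.59 without SD animal 6) to -0.07 with RPL4.

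**Figure D2:**
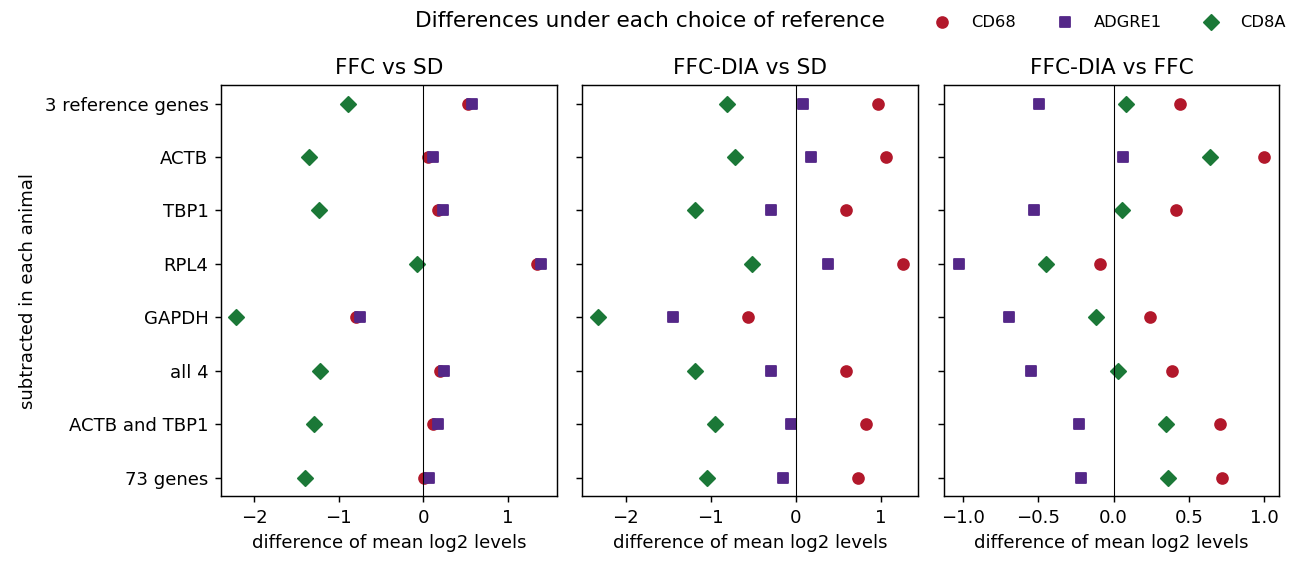
Difference of group mean log2 levels (x axis) for CD68, ADGRE1 and CD8A in the 3 comparisons, with a separate line for each quantity subtracted in every animal (y axis). CD68 and ADGRE1 coincide in FFC vs SD under each choice and move together from -0.80 to 1.40, where the lower end is the GAPDH line and is set by SD animal 6 (0.93 and 0.90 without it), while in the comparisons of FFC-DIA CD68 lies right of ADGRE1 under each choice, by a distance that is the same by construction.

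Measured against the mean of the 73 genes in the same animal, which removes the reference genes, CD8A fell in both FFC groups and CD68 was higher in FFC-DIA than in FFC. CD8A lay at -0.64 to 1.32 in SD (median -0.29), at -3.33 to 0.02 in FFC (median -1.32) and at -2.17 to -0.34 in FFC-DIA (median -0.98), on the log2 scale with the SD mean at 0. In 12 of 13 FFC animals and in 8 of 8 FFC-DIA animals CD8A was below the SD mean, with 12 and 7 of them below every SD animal.

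CD8A fell by 1.40 ± 0.35 in FFC against SD, a level 2.64-fold lower (95% interval -2.16 to -0.65, exact p = 0.000361, adjusted p = 0.0264). It was the 1 gene of 73 called in that comparison (1.37%). The call was lost without SD animal 1 (-1.18, adjusted p = 0.0928), SD animal 4 (-1.28, adjusted p = 0.0525) or SD animal 5 (-1.43, adjusted p = 0.0511), all by the exact test.

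In FFC-DIA against SD, CD8A fell by 1.04 ± 0.34, a level 2.06-fold lower (95% interval -1.77 to -0.35, exact p = 0.00171, adjusted p = 0.0416), where 4.11% of the genes were called. The call was lost in 11 of 15 fits that left out 1 animal, with adjusted p up to 0.113 (exact test) without SD animal 1. It was kept without FFC-DIA animal 4 or without SD animal 3, 6 or 7. FFC-DIA and FFC differed by 0.36 ± 0.29 (95% interval -0.28 to 1.02, exact p = 0.275, adjusted p = 0.518), an interval that allows a level from 0.821-fold to 2.03-fold. That difference was 0.67 among animals with 2 cDNA replicates (n = 7 and 11) and -1.56 among those with 1 (n = 1 and 2).

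The number of cDNA replicates moved with these differences. Among animals with 2 cDNA replicates, mean CD8A was 1.08 lower on the log2 scale in FFC (n = 11) than in SD (n = 2), with FFC animals at -3.33 to -0.78 and SD animals at -0.64 and -0.29. Among animals with 1 replicate, the difference was -0.79 (n = 2 and 5). In FFC-DIA against SD it was -0.42 among animals with 2 replicates (n = 7 and 2) and -2.35 among those with 1, where FFC-DIA is animal 6 alone (n = 1 and 5). With the replicate number as strata the CD8A difference was -0.95 in FFC (exact permutation p = 0.0348, adjusted p = 0.297) and -1.09 in FFC-DIA (exact permutation p = 0.00926, adjusted p = 0.203). Those strata allow 1638 and 216 arrangements, with smallest p-values of 0.000611 and 0.00463.

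CD68 did not follow CD8A. With the panel mean as centre it lay at -0.40 to 0.85 in SD (median -0.06), at -0.83 to 0.70 in FFC (median -0.01) and at -0.03 to 1.44 in FFC-DIA (median 0.74). The SD and FFC animals overlapped over most of their range, and 4 of 8 FFC-DIA animals lay above every FFC animal. CD68 rose by 0.72 ± 0.19 in FFC-DIA against FFC, which is 1.65-fold (95% interval 0.33 to 1.11, exact p = 0.00109, adjusted p = 0.0261), where 8.22% of the genes were called. Only 3 of the 73 genes had a larger difference.

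That CD68 call was kept with the number of cDNA replicates as strata (0.72, adjusted p = 0.0302, exact permutation test within strata). It was lost without FFC-DIA animal 5 (0.71, adjusted p = 0.0620), 6 (0.62, adjusted p = 0.0618) or 7 (0.70, adjusted p = 0.0584), all by the exact test. Against SD the FFC-DIA mean was 0.73 ± 0.22 higher and did not pass (95% interval 0.26 to 1.19, exact p = 0.00746, adjusted p = 0.0891). Without SD animal 4, whose CD68 was the highest of its group, the difference was 0.87 and passed (adjusted p = 0.0486, exact test). FFC and SD differed by 0.01 ± 0.19 (95% interval -0.39 to 0.41, exact p = 0.954, adjusted p = 0.968).

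ADGRE1, the other macrophage marker, passed in none of the 3 comparisons. It lay at -0.59 to 0.64 in SD (median 0.03), at -0.74 to 0.98 in FFC (median 0.08) and at -0.46 to 0.56 in FFC-DIA (median -0.25) with the panel mean as centre. The 3 groups overlapped throughout. The differences were 0.06 ± 0.23 for FFC against SD (95% interval -0.41 to 0.53), -0.15 ± 0.22 for FFC-DIA against SD (95% interval -0.62 to 0.31) and -0.22 ± 0.18 for FFC-DIA against FFC (95% interval -0.62 to 0.18), with adjusted p = 0.925, 0.797 and 0.518 from the exact permutation test. With cDNA strata the first of these was 0.24 and the second 0.20 (adjusted p = 0.848 and 0.723, exact permutation test).

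In the test of all 3 groups on this scale, CD8A passed Bonferroni adjustment (permutation p = 0.00035, adjusted p = 0.0256), where 2.74% of the genes were called. That call was lost in 13 of 28 fits that left out 1 animal (adjusted p up to 0.262, permutation test) and with cDNA strata (adjusted p = 1, permutation test). CD68 did not pass it (permutation p = 0.00143, adjusted p = 0.104), and ADGRE1 had a permutation p of 0.556 before adjustment.

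**Figure D3:**
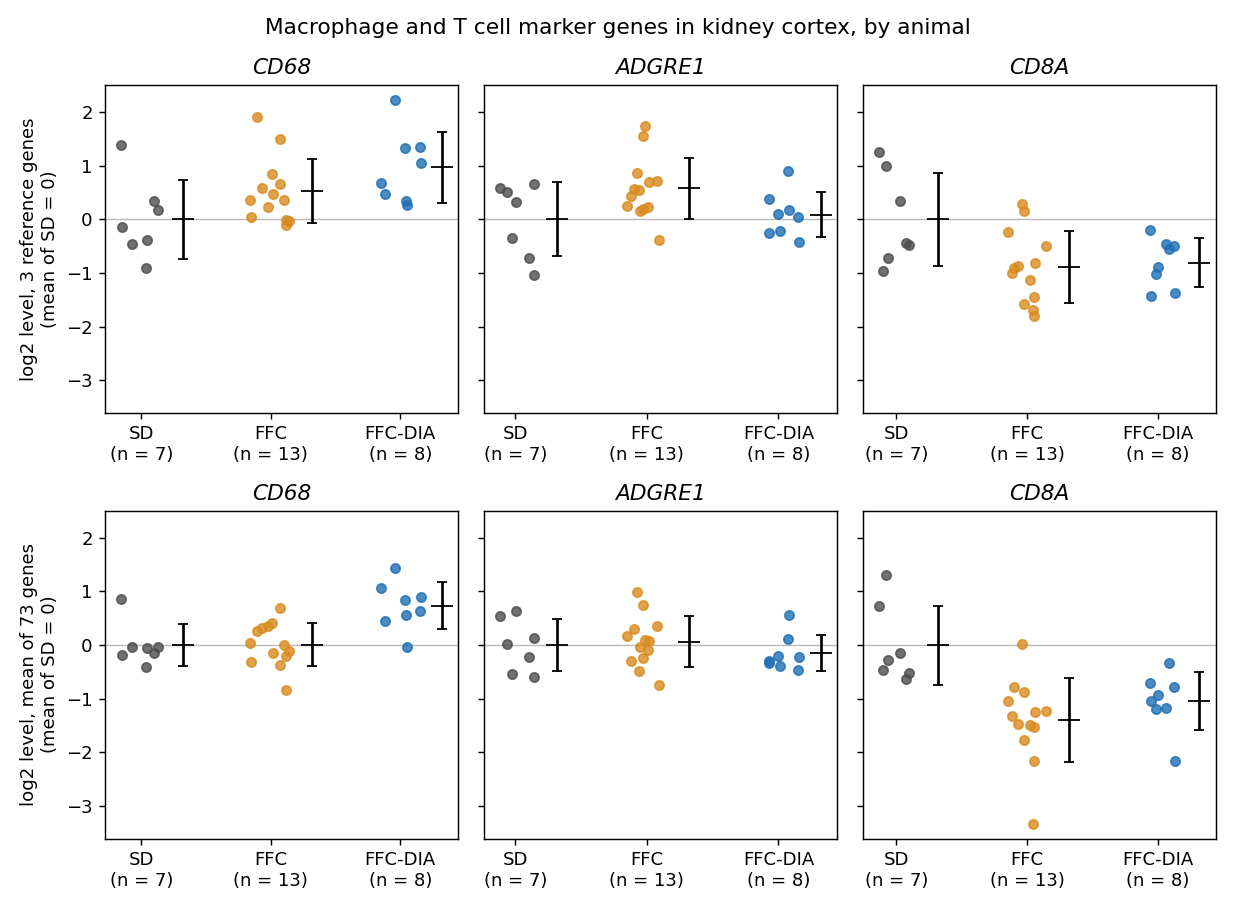
Log2 levels of CD68, ADGRE1 and CD8A in each animal, relative to 3 reference genes (top) and to the mean of 73 genes (bottom), with the mean of SD at 0. Points are animals and bars show the group mean ± SD. In the lower panels CD8A lies below every SD animal in 12 of 13 FFC animals and CD68 lies above every FFC animal in 4 of 8 FFC-DIA animals.

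**Figure D4:**
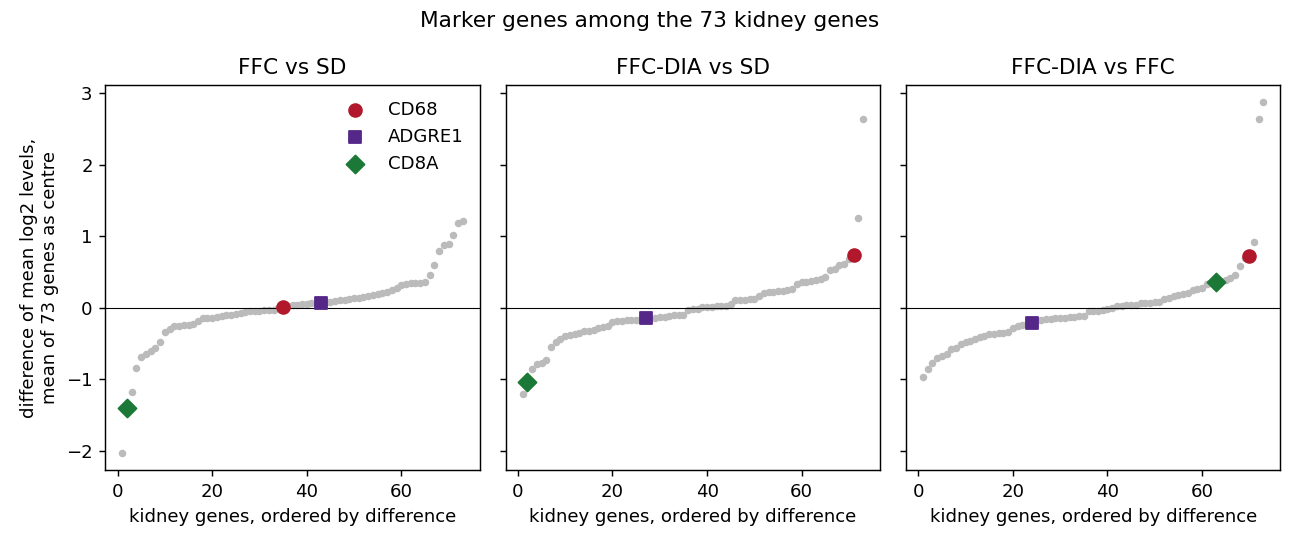
The 73 kidney genes in order of the difference of group means (log2, mean of 73 genes as centre) in each comparison, grey points for the other genes. CD8A is next to the lowest gene in both comparisons with SD, CD68 is near the top in both comparisons of FFC-DIA (rank 3 and rank 4), and ADGRE1 stays in the middle.

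A ratio of 2 genes in 1 animal contains no reference gene and tests directly whether 2 markers moved apart. The p-values were adjusted over all pairs of the 73 genes. The log2 ratio of CD68 to ADGRE1 lay at -0.74 to 0.71 in SD (median -0.17), at -0.62 to 0.66 in FFC (median -0.05) and at 0.17 to 1.33 in FFC-DIA (median 0.87), with the SD mean at 0. SD and FFC overlapped fully, and 6 of 8 FFC-DIA animals lay above every FFC animal.

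The 2 macrophage markers thus moved apart between FFC and FFC-DIA. The ratio rose by 0.94 ± 0.18 in FFC-DIA against FFC, which is 1.91-fold (95% interval 0.57 to 1.30, exact p = 5.9e-05, adjusted p = 0.00215), where 5.82% of all pairs of genes were called. It passed in each of the 21 fits that left out 1 animal, with differences from 0.87 to 1.04, and also within strata of equal cDNA number (0.94, adjusted p = 0.00409, exact permutation test). Among animals with 2 cDNA replicates alone the difference was 0.84 (n = 7 and 11).

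Against SD the CD68 to ADGRE1 ratio of FFC-DIA was 0.88 ± 0.27 higher (95% interval 0.31 to 1.47, exact p = 0.00684, adjusted p = 0.0993), where 5.02% of all pairs were called. It passed without FFC-DIA animal 3 (adjusted p = 0.0486, exact test). With cDNA strata it was 0.72 (exact permutation p = 0.0417, adjusted p = 0.321). Among the animals with 2 cDNA replicates it was 0.28 (n = 7 and 2) and among those with 1 it was 1.55 (n = 1 and 5). Between FFC and SD it differed by -0.05 ± 0.25 (95% interval -0.50 to 0.40, adjusted p = 0.936, exact test), where 0.457% of all pairs were called. With cDNA strata that difference was -0.32 (exact permutation p = 0.221, adjusted p = 0.701). Among animals with 2 cDNA replicates it was -0.56 (n = 11 and 2) and among those with 1 it was -0.03 (n = 2 and 5).

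Of the ratios of the macrophage markers to CD8A, CD68 to CD8A rose in FFC-DIA against SD, and no other passed in any comparison. The log2 ratio of CD68 to CD8A lay at -1.37 to 0.61 in SD (median 0.12), at 0.31 to 3.60 in FFC (median 1.42) and at 0.76 to 3.61 in FFC-DIA (median 1.68). All 8 FFC-DIA animals lay above every SD animal, a separation found in 2.44% of all pairs of genes. The ratio rose by 1.77 ± 0.40 in FFC-DIA against SD, which is 3.42-fold (95% interval 0.95 to 2.67, exact p = 0.000466, adjusted p = 0.0166), and passed in each of the 15 fits that left out 1 animal.

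With the number of cDNA replicates as strata that difference was 2.02 (exact permutation p = 0.00463, the smallest possible, adjusted p = 0.111), so that no ratio could pass with these strata. Among animals with 2 replicates it was 1.08 (n = 7 and 2) and among those with 1 it was 3.78 (n = 1 and 5). In FFC against SD the CD68 to CD8A ratio was 1.41 ± 0.33 higher (95% interval 0.67 to 2.18, exact p = 0.000413, adjusted p = 0.0509), and 10 of 13 FFC animals exceeded the highest SD animal. With cDNA strata that difference was 0.88 (exact permutation p = 0.0360, adjusted p = 0.478). FFC-DIA and FFC differed by 0.36 ± 0.39 (95% interval -0.44 to 1.16, adjusted p = 0.651, exact test), and by 0.36 with cDNA strata (adjusted p = 0.704, exact permutation test). The difference was -0.10 among animals with 2 replicates (n = 7 and 11) and 3.25 among those with 1 (n = 1 and 2).

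ADGRE1 gave a like picture against CD8A in FFC. The log2 ratio of ADGRE1 to CD8A lay at -0.68 to 1.07 in SD (median 0.10), at 0.28 to 3.43 in FFC (median 1.56) and at 0.12 to 2.28 in FFC-DIA (median 0.72). Of the 13 FFC animals 9 lay above every SD animal, while FFC-DIA overlapped both groups. The difference was 1.47 ± 0.31 for FFC against SD (95% interval 0.76 to 2.18, exact p = 0.000271, adjusted p = 0.0509) and 0.89 ± 0.34 for FFC-DIA against SD (95% interval 0.15 to 1.64, exact p = 0.0214, adjusted p = 0.189). With cDNA strata these were 1.19 (exact permutation p = 0.00855, adjusted p = 0.428) and 1.30 (exact permutation p = 0.00463, the smallest possible, adjusted p = 0.111). FFC-DIA and FFC differed by -0.58 ± 0.33 (95% interval -1.29 to 0.13, adjusted p = 0.354, exact test), and by -0.58 with cDNA strata (adjusted p = 0.376, exact permutation test). Among animals with 2 cDNA replicates that difference was -0.93 (n = 7 and 11).

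**Figure D5:**
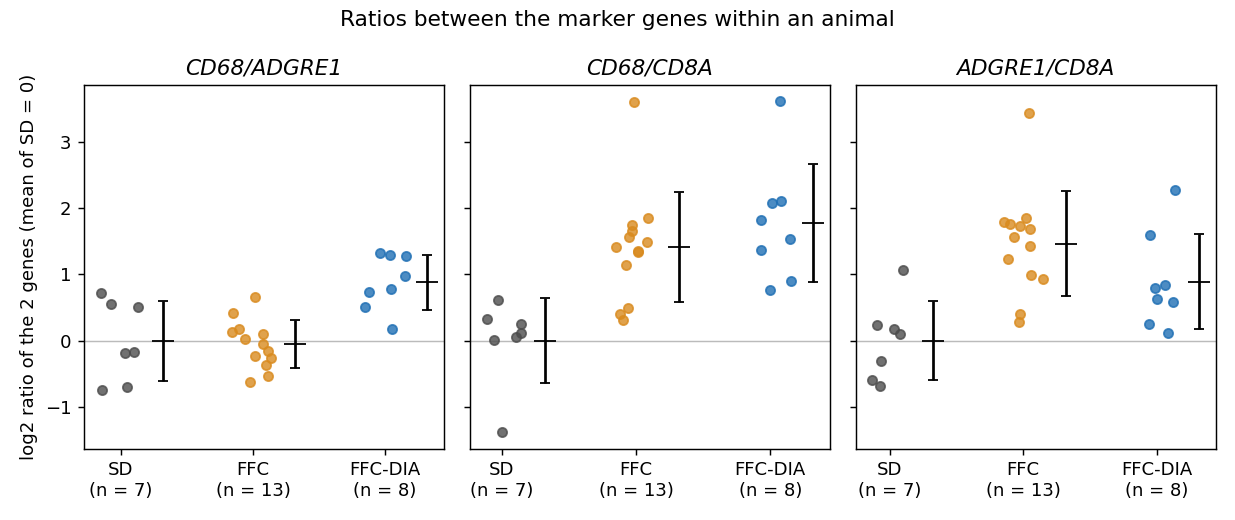
Log2 ratio of 2 marker genes within each animal (y axis, mean of SD at 0) by group. Points are animals and bars show the group mean ± SD. CD68/ADGRE1 is near 0 in SD and FFC and at 0.17 to 1.33 in FFC-DIA, and the 8 FFC-DIA animals lie above every SD animal for CD68/CD8A.

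Against each of the other 72 genes in turn, the ratios that passed were counted for each marker. In FFC-DIA against FFC, CD68 was higher relative to 20 of 72 genes (27.8%) and lower relative to 1, ADGRE1 was lower relative to 2, and CD8A was lower relative to 1 (1.39%), where 5.82% of all pairs passed. The shares of ADGRE1 (2.78%) and CD8A lay below that of all pairs. In FFC against SD, CD8A was lower relative to 8 of 72 genes (11.1%), and no ratio of CD68 or ADGRE1 passed, where 0.457% of all pairs did. In FFC-DIA against SD, CD8A was lower relative to 13 genes (18.1%), CD68 was higher relative to 10 and lower relative to 1, and ADGRE1 was lower relative to 1 (1.39%), where 5.02% of all pairs passed.

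Of the other genes of the panel that are associated with leukocytes, 8 were compared. They included MRC1 (the mannose receptor of macrophages), CCR2 (a chemokine receptor of monocytes) and CD80 (a co-stimulatory ligand of antigen-presenting cells). LGALS3 (galectin-3), the Toll-like receptors TLR2 and TLR4, CD3E (a chain of the T cell receptor complex) and CD4 (the co-receptor of helper T cells) made up the rest. They are called leukocyte genes here, but whether leukocytes alone express them in this tissue was not tested. Relative to the reference genes, 8 of 8 had a higher mean in FFC than in SD beside 89% of the 73 genes, with a median difference of 0.55, the same as that of the 73 genes. MRC1 alone rose beyond the threshold (0.86 ± 0.26, exact p = 0.00439, adjusted p = 0.0448), 1 of 8 where 19.2% of the 73 genes were called. In the comparisons of FFC-DIA with SD and with FFC none passed, with medians of 0.13 and -0.33 beside panel medians of 0.21 and -0.33.

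With the panel mean as centre none of the 8 passed in any comparison, and 5, 2 and 4 of 8 had a higher mean in FFC against SD, FFC-DIA against SD and FFC-DIA against FFC, beside 53.4%, 47.9% and 43.8% of the 73 genes. The T cell genes CD3E and CD4 did not pass the test that CD8A passed. CD3E differed by -0.03 (95% interval -0.63 to 0.57) and CD4 by -0.13 (95% interval -0.64 to 0.38) in FFC against SD, with adjusted p = 0.962 and 0.899 from the exact permutation test. In FFC-DIA against SD they differed by -0.19 (95% interval -0.80 to 0.41) and -0.10 (95% interval -0.64 to 0.41), with adjusted p = 0.797 and 0.873.

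CD8A had a lower mean in FFC than in SD relative to 71 of the 72 other genes (98.6%), so that its direction against the genes below is not particular to them. The log2 ratio of CD8A to CD3E fell by 1.37 ± 0.44 in FFC against SD (95% interval -2.13 to -0.64, exact p = 3.87e-05, adjusted p = 0.0254), with 11 of 13 FFC animals below every SD animal. The ratio of CD8A to CD4 differed by -1.27 ± 0.43 (95% interval -2.04 to -0.54, exact p = 0.00049, adjusted p = 0.0509). Against the macrophage gene MRC1, CD8A fell by 1.74 ± 0.33 (95% interval -2.42 to -1.06, exact p = 1.29e-05, adjusted p = 0.0170), with 13 of 13 FFC animals below every SD animal, a separation found in 0.114% of all pairs.

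The CD8A to MRC1 call in FFC against SD was kept in each of the 20 fits that left out 1 animal. The CD8A to CD3E call was lost without SD animal 1 (-1.02, adjusted p = 0.0775, exact test) and also without SD animal 2 or 4 or FFC animal 1, 3 or 5. With cDNA strata neither passed, with differences of -1.41 to MRC1 and -1.08 to CD3E (exact permutation p = 0.00305 and 0.0263, adjusted p = 0.428 and 0.454).

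Among animals with 2 cDNA replicates the CD8A to CD3E and CD8A to MRC1 differences were -0.90 and -1.39 (n = 11 and 2). Among animals with 1 they were -1.31 and -1.43 (n = 2 and 5). In FFC-DIA against SD the ratio of CD8A to MRC1 fell by 1.72 ± 0.46 (exact p = 0.000932, adjusted p = 0.0255). With the panel mean as centre CD8A was 1.04 lower there and MRC1 0.68 higher (adjusted p = 0.362 for MRC1, exact test). That MRC1 value was 1.91 and 2.23 in FFC-DIA animals 5 and 8, and at most 0.74 in the other FFC-DIA animals. The CD8A to MRC1 call there was lost in 6 of 15 fits that left out 1 animal, those without SD animal 1, 2, 4, 5, 6 or 7 (adjusted p up to 0.0958, exact test). With cDNA strata the difference was -1.80 (adjusted p = 0.210, exact permutation test). No ratio could pass with those strata, since their smallest p of 0.00463 came to an adjusted p of 0.111. The CD8A to CD3E ratio did not pass there (-0.86 ± 0.46, 95% interval -1.83 to 0.04, exact p = 0.0636, adjusted p = 0.371), and without SD animal 1 it was -0.50 (adjusted p = 0.570, exact test).

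CD68 had a higher mean relative to 8 of the 8 other leukocyte genes in FFC-DIA against FFC, by 0.38 to 1.13 on the log2 scale, and 4 of these ratios passed, where 5.82% of all pairs did. The direction is not particular to these genes, since CD68 had a higher mean relative to 69 of all 72 other genes (95.8%). They were the ratios to CD3E (0.88 ± 0.25, adjusted p = 0.0286), LGALS3 (0.87 ± 0.22, adjusted p = 0.0401), CD80 (0.85 ± 0.21, adjusted p = 0.0279) and CD4 (0.70 ± 0.20, adjusted p = 0.0448), all by the exact test. Each of these 4 calls was lost in some fits that left out 1 animal, since the ratios to CD3E and CD80 passed in 17 of 21 fits, LGALS3 in 8 and CD4 in 6, with adjusted p up to 0.107 (exact test). Without FFC-DIA animal 1, 2 or 7 all 4 were lost. With cDNA strata the ratios to CD3E and CD80 passed (adjusted p = 0.0353 and 0.0255, exact permutation test) and those to LGALS3 and CD4 did not (adjusted p = 0.0562 and 0.0600). The ratio to MRC1 did not pass (0.38 ± 0.35, 95% interval -0.23 to 0.97, exact p = 0.209, adjusted p = 0.498) and ran from 0.24 without FFC-DIA animal 1 to 0.61 without FFC-DIA animal 8. No ratio of ADGRE1 to the 8 genes passed in that comparison, with differences from -0.56 (to MRC1) to 0.20 (to TLR4). These were -0.31 without FFC-DIA animal 8 and 0.09 without FFC-DIA animal 1.

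The 3 pairs of markers were also followed over the animals within groups. With the group mean removed and the panel mean as centre, CD68 and ADGRE1 correlated with r = 0.46 over 28 animals (permutation p = 0.0173, adjusted p = 0.193 over all pairs of genes) and with Spearman rho = 0.44 (permutation p = 0.0234). Without the 2 animals farthest from the median of CD68, r was 0.45. Within groups r was 0.08 for SD, 0.67 for FFC and 0.45 for FFC-DIA. A higher r was found in 5.56% of all pairs of genes, where the median was close to 0 and the 5th and 95th percentiles were -0.42 and 0.48.

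CD68 and CD8A correlated with r = 0.03 (permutation p = 0.867, rho = 0.15 with permutation p = 0.452, r = -0.04 without the 2 farthest animals) and ADGRE1 and CD8A with r = 0.27 (permutation p = 0.192, rho = 0.26 with permutation p = 0.211, r = 0.24 without the 2 farthest animals). The values within groups ran from -0.68 in FFC-DIA to 0.50 in SD for the first pair and from -0.33 to 0.59 in the same groups for the second. Of the 3 pairs none passed adjustment over all pairs, and 2.97% of all pairs did. The points share the panel mean and the depth of each animal's cDNA.

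The 3 genes with the highest r to each marker are named as a description. For CD68 they were CD80 (r = 0.54), CD4 (0.50) and the complement gene C3 (0.47), with ADGRE1 in the fifth place. For ADGRE1 they were CD68 (0.46), CD80 (0.42) and TLR2 (0.38). For CD8A they were TGFB1 (0.47), AGTR1 (0.42) and VEGFA (0.40), a growth factor, an angiotensin receptor and an angiogenic factor, with CD3E at 0.37. None passed adjustment over all pairs of genes.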

How the data were processed

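Per the authors' methods, total RNA of kidney cortex was reverse transcribed in 2 cDNA replicates, pre-amplified for 16 cycles and measured on a microfluidic chip for 30 cycles. The authors deposited Cq values (a score in cycles that is not normalized), 1 mean per gene and animal over the cDNA replicates held. Of 96 assays designed, 77 were used here, 73 kidney genes and 4 reference genes. The PCR efficiency correction that the authors describe was not applied, and 2-fold per cycle was assumed. Read depth does not apply, and the number of animals limits the precision.

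Each gene's Cq was subtracted from the mean of the reference genes ACTB, TBP1 and RPL4, or from that of the 73 genes. Groups came from the labels. The difference of means between 2 groups was tested by exact two-sided permutation (77520 splits for FFC vs SD, 6435 for FFC-DIA vs SD, 203490 for FFC-DIA vs FFC), with Benjamini-Hochberg adjustment over the 73 genes or, for ratios, over all pairs of these genes. The 3 groups were compared by the F statistic over 100000 labellings with Bonferroni adjustment. The 95% intervals invert the exact test, ± is the SE of a difference, and p-values measure the spread between animals. Correlations were permuted within groups. The tests were checked on simulated data. Python 3.11.15 with numpy 2.4.6, scipy 1.17.1 and pandas 2.3.3 was used, and limma 3.58.1 in R 4.3.3 as an alternative.

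The genes and lists were chosen with earlier results of these data known. Named were the 3 markers, the 8 other leukocyte genes, the reference genes, NPHS1, WT1 and CDH1, and for each marker the 3 genes with the highest r. Alternatives were other reference genes, centres, tests, scales, adjustments, cDNA strata, a replicate block and each animal left out, also for the ratios to leukocyte genes. A second deposited table, of fold changes against SD per animal, was not used.

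All 3 symbols were found in the RefSeq gene table. Replicate numbers were not used to pair the animals in the main tests.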

Additional observations from a re-analysis of the deposited data

Results flagged for a closer look

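The 3 markers on both scales and their 3 ratios were searched in SD and FFC-DIA, 18 sets of values in all, for an animal far from the others of its group. The FFC group was too large for this search and was not part of it. Chance gives one in about 1 of 20 such sets, and 3 were found. CD68 with the panel mean as centre was 0.85 in SD animal 4, with the other SD animals at -0.40 to -0.03. CD8A with the panel mean as centre was -2.17 in FFC-DIA animal 6, an animal with 1 cDNA replicate, with the other FFC-DIA animals at -1.18 to -0.34. The log2 ratio of CD68 to CD8A was -1.37 in SD animal 1, with the other SD animals at 0.01 to 0.61. The effect of leaving out each of these animals stands with the results. In FFC, outside the search, animal 9 had a panel-centred CD8A of -3.33 with the next animal at -2.17, a CD68 to CD8A ratio of 3.60 with the next at 1.85, and an ADGRE1 to CD8A ratio of 3.43 with the next at 1.85. Without it the panel-centred CD8A difference between FFC and SD was -1.24 (adjusted p = 0.0275, exact permutation test).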

How the results depend on the processing

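Values are log2 differences with adjusted p in brackets. Relative to the reference genes, RPL4 alone gave 1.34 (0.0323) for CD68 and 1.40 (0.0266) for ADGRE1 in FFC vs SD. With RPL4 alone 53 of the 73 genes were called higher there, at a panel median of 1.37. In FFC-DIA vs FFC it gave -0.0879 for CD68 and -0.45 for CD8A. GAPDH alone gave -0.80 and -0.75 for CD68 and ADGRE1 in FFC vs SD, -0.56 and -1.44 in FFC-DIA vs SD, and -0.12 for CD8A in FFC-DIA vs FFC. The comparisons with SD rest there on SD animal 6, whose GAPDH was detected late, and without it (chosen after seeing the data) GAPDH alone gave 0.93 and 0.90 in FFC vs SD and 1.17 and 0.20 in FFC-DIA vs SD. In FFC-DIA vs SD, TBP1 alone gave -0.29 for ADGRE1 and -1.18 (0.0340) for CD8A, all 4 reference genes -0.30 for ADGRE1, and ACTB with TBP1 -0.0595. Without SD animal 6 the ADGRE1 difference with all 4 turned to 0.0701. In FFC-DIA vs FFC, ACTB alone gave 1.00 (0.00395) for CD68 and 0.0615 for ADGRE1, ACTB with TBP1 0.71 (0.0391) for CD68, and linear quantities -0.0032 for CD8A. These reversals concern differences that did not pass the test, and apart from SD animal 6 their cause was not tested.

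With the panel mean as centre, CD68 in FFC vs SD was -0.0219 with the panel median, -0.0733 with cDNA strata and -0.0036 with the replicate block. cDNA strata gave -0.95 (0.297) and -1.09 (0.203) for CD8A in FFC and FFC-DIA vs SD, 0.20 for ADGRE1 in FFC-DIA vs SD, and 2.02 (0.111) for CD68 to CD8A in FFC-DIA vs SD. In FFC-DIA vs SD, CD8A gave -1.04 with limma (0.0850) and with Bonferroni (0.125), and -6.70 in mean ranks (0.0529), and CD68 0.73 with limma (0.0372). Bonferroni gave 0.72 (0.0796) for CD68 in FFC-DIA vs FFC, 1.77 (1) for CD68 to CD8A in FFC-DIA vs SD and 0.94 (0.155) for CD68 to ADGRE1 in FFC-DIA vs FFC. limma gave 1.41 (0.0445) for CD68 to CD8A and 1.47 (0.0251) for ADGRE1 to CD8A in FFC vs SD, and 0.88 (0.0288) for CD68 to ADGRE1 in FFC-DIA vs SD. In the 3-group test, adjusted p was 0.0467 for CD68 with ACTB alone, 0.0256 for CD8A with the panel mean as centre, and with that centre 0.0834 by the F distribution, 0.0520 by limma and 1 with cDNA strata for CD8A, and 0.0261 by Benjamini-Hochberg for CD68 (the alternatives with that centre were chosen after seeing the data).

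Same-numbered animals did not deviate together in FFC vs SD and FFC-DIA vs FFC (r over 0.1 in 1 of 7 and 0 of 8 pairs). In FFC-DIA vs SD 4 of 7 pairs had an r over 0.1 (median 0.17). The number was not used as a pairing in the main tests. The replicate block allows 128 or 256 arrangements, with smallest p-values of 0.0156 and 0.00781. It gave -1.54 (0.285) and -1.02 (0.228) for CD8A in FFC and FFC-DIA vs SD, 0.78 (0.207) for CD68 in FFC-DIA vs FFC, 1.77 (0.190) for CD68 to CD8A in FFC-DIA vs SD and 0.93 (0.111) for CD68 to ADGRE1 in FFC-DIA vs FFC.

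Leaving out each animal in turn gave these ranges. Relative to the reference genes they were -0.0872 to 0.20 for ADGRE1 in FFC-DIA vs SD (negative without FFC-DIA animal 6, SD animal 2 or SD animal 7) and -0.0039 to 0.18 for CD8A in FFC-DIA vs FFC (negative without FFC-DIA animal 5). Differences that did not pass also moved by over 1.5 times in FFC-DIA vs FFC, where CD68 relative to the reference genes was 0.26 and CD68 to CD8A 0.0974 without FFC-DIA animal 6, and panel-centred CD8A 0.20 without FFC animal 9. Panel-centred ADGRE1, which did not pass either, ran from -0.25 to -0.0463 in FFC-DIA vs SD and from -0.32 to -0.14 in FFC-DIA vs FFC. With the panel mean as centre they were, in FFC vs SD, -0.0564 to 0.15 for CD68, -0.0347 to 0.17 for ADGRE1 and -1.52 to -1.18 for CD8A. In FFC-DIA vs SD they were 0.63 to 0.87 for CD68 and -1.15 to -0.82 for CD8A, and in FFC-DIA vs FFC 0.62 to 0.83 for CD68. The ratios gave -0.18 to 0.0665 for CD68 to ADGRE1, 1.18 to 1.52 for CD68 to CD8A (passing without FFC animal 8, 10, 11, 12 or 13 or SD animal 6) and 1.30 to 1.64 for ADGRE1 to CD8A in FFC vs SD (passing without FFC animal 8, 11, 12 or 13 or SD animal 3 or 7), and 0.76 to 1.00 for CD68 to ADGRE1 in FFC-DIA vs SD. In the 3-group test adjusted p ran from 0.0226 to 0.450 for CD68 (passing without SD animal 4, FFC animal 1 or FFC-DIA animal 3) and from 0.00219 to 0.262 for CD8A, which failed in 13 of 28 such fits.

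Beside the fits that left out each animal in turn, 237 alternatives left direction and side of the threshold as they were, 17 lost a call, 12 gained one and 16 turned the direction. Some of the lost calls could not have been kept by the alternative used. Each call lost with the replicate block stood at the smallest p-value that the block allows. For CD68 to CD8A in FFC-DIA vs SD, cDNA strata also gave their smallest p-value, and Bonferroni adjustment over all pairs cannot pass with 6435 splits. The planned use of the deposited fold changes was not run, since ADGRE1 has no values there and many others are rounded to whole numbers. The small groups and the unequal cDNA numbers limit the comparisons with SD, and its late Cq those of CD8A.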
